A study of Homo sapiens with 2 samples.

Results

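RNA recovered with hTrmt13 (TRMT13), a human tRNA methyltransferase, was examined for 10 genes of the epithelial-mesenchymal transition. ZEB1, ZEB2, SNAI1, SNAI2 and TWIST1 encode transcription factors that drive the transition, and TGFB1, TGFBR1, TGFBR2, SMAD2 and SMAD3 encode a ligand, the receptors and the signal carriers of the TGF-beta pathway. The genes were taken by symbol from the 20298 protein-coding genes of the count tables, and 10 of 10 were found. Their counts were not part of the rule, but the set was chosen with earlier results of these data known. The cells were MDA-MB-231, a human breast carcinoma line in long use as a model of mesenchymal-type, invasive carcinoma. Crosslinked hTrmt13-RNA complexes were isolated with an antibody and the RNA was sequenced (CLIP-seq) in 1 group of 2 replicates, with no genetic change or treatment named in the labels. An input or antibody control library was not analysed here, so a count cannot be divided into RNA bound by hTrmt13, RNA abundance in the cells and RNA carried through the isolation. In a bulk sample, less RNA per cell and fewer cells with the RNA cannot be told apart either. With 1 group there was no test between conditions.

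In the epithelial-mesenchymal transition, cells lose their junctions and polarity and gain motility. ZEB, SNAIL and TWIST factors repress epithelial genes such as the one for E-cadherin, largely by binding E-box elements and recruiting corepressors. TGF-beta is a strong inducer of the program: the ligand brings the type II and type I receptors together, the type I receptor phosphorylates SMAD2 and SMAD3, and these enter the nucleus with SMAD4, where SNAI1, SNAI2 and the ZEB genes are among the targets.

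Each replicate had a count table for each read mate (R1 and R2). Total counts in R1 were 27907799 for replicate 1 and 20590398 for replicate 2, and totals in R2 were 11246823 and 8793089. Where no mate is named a value is an R1 value, and the replicate order is kept throughout. Counts scaled to the total of their table (CPM) were divided by the length of the listed gene span, introns included, to give CPM per kb. The place of a gene is the percentage of the 500 nuclear protein-coding genes nearest to it in length that had a lower mean CPM per kb, the 10 genes themselves left out. Whether the replicates were separate cultures is not stated, so their spread may be technical. Intervals are exact 95% intervals and cover counting error only. Among 6 markers of mesenchymal-type carcinoma cells none was at 0, and the summed level was 17.5 and 44.6 CPM. VIM, which encodes vimentin, held 382 and 722 of the 487 and 919 R1 counts of these markers, so the summed level was mostly that of VIM. It lay at place 99.4, whereas the other markers lay below the median of genes of their length, among them CD44 at place 14.6 with 12 and 7 counts. Of 6 epithelial markers KRT18 alone lay above that median, and they summed to 3.98 and 8.60 CPM. Of 7 blood, liver and neuronal markers CD3E and ALB had no R1 count, and the 7 summed to 1.40 and 3.84 CPM.

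The 10 genes together held 1035 R1 counts in replicate 1 and 1607 in replicate 2. These were 37.1 (34.9 to 39.4) and 78.0 (74.3 to 82.0) CPM. The transcription factors took 379 and 498 of them, of which ZEB1 alone held 61.7% and 56.6%. The ligand, receptors and SMADs took 656 and 1109, of which TGFB1 held 39.9% and 45.1%. Thus ZEB1 held most of the counts of the factors in either replicate, and no gene of the pathway group did so.

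**Figure D1:**
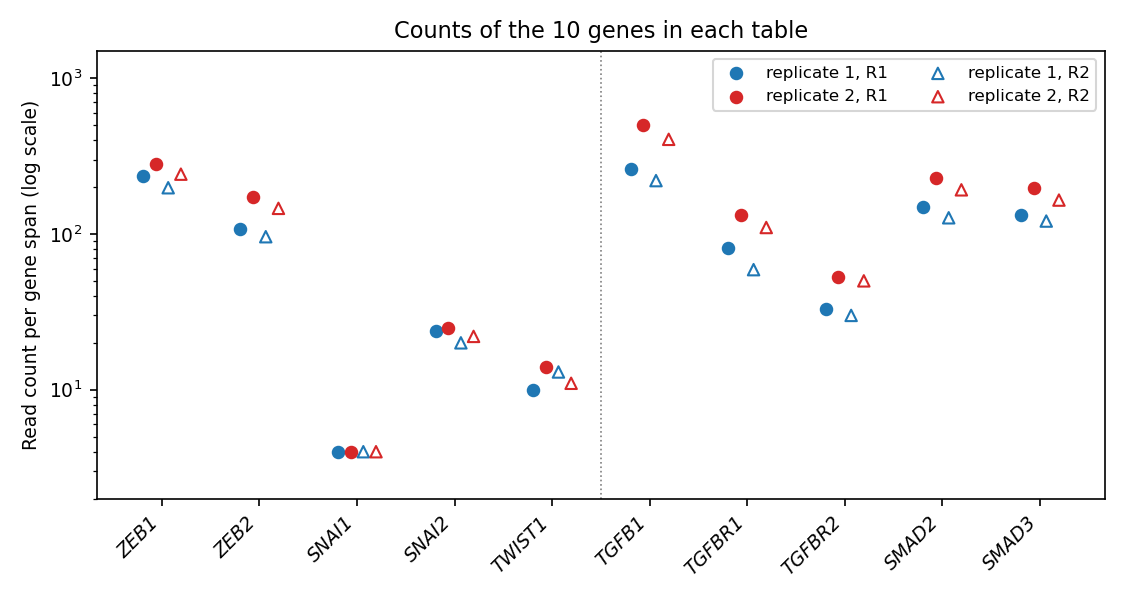
R1 and R2 counts of the 10 genes in each replicate, on a log axis, with 1 point per table. TGFB1, with 262 and 500 R1 counts, lay at the top and SNAI1, with 4 in each table, at the bottom.

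Of the transcription factors, ZEB1 had the most counts. It encodes a zinc-finger and homeodomain repressor of epithelial genes and lies at chr10:31607424-31818742 on the plus strand (hg19, 211.319 kb, ENSG00000148516.21_3). It had 234 R1 counts in replicate 1 and 282 in replicate 2. Its R2 counts were 198 and 242. Per length this was 0.0397 and 0.0648 CPM per kb, a mean of 0.0522 ± 0.0178 (SD, n = 2). Genes of like length had a median of 0.0291 CPM per kb, and ZEB1 lay above 76.4% of them, with places of 81.0 and 72.8 in the single replicates. The antisense gene ZEB1-AS1, which overlaps the ZEB1 span by 1953 bp, held 14 and 23 counts. How strand was treated in counting is not given, so whether reads of the shared stretch entered both counts is not known.

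ZEB2, the paralog of ZEB1 with a like domain build, lies at chr2:145121931-145282150 on the minus strand (160.22 kb, ENSG00000169554.19_4). It had 107 and 173 R1 counts and 96 and 146 R2 counts. Its level was 0.0239 and 0.0524 CPM per kb (0.0382 ± 0.0202, SD, n = 2), close to the median of 0.0342 for genes of its length, at place 53.2. Per kb, ZEB1 exceeded ZEB2 by a ratio of 1.66 (1.31 to 2.10) in replicate 1 and 1.24 (1.02 to 1.5) in replicate 2. Both intervals lay above 1, although the ranges of the 2 genes over the replicates overlapped. Divided by the longest coding transcript, 6267 bases for ZEB1 and 9583 for ZEB2, the ratios were 3.34 and 2.49.

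SNAI1 and SNAI2 encode the zinc-finger repressors SNAIL and SLUG. Both are short genes. SNAI1 (chr20:48599536-48605423, plus strand, 5.888 kb, ENSG00000124216.3_2) had 4 counts in each of the 4 tables. That was 0.0243 and 0.0330 CPM per kb, or 0.0287 ± 0.00612 (SD, n = 2), at place 42.2. Of the 500 genes nearest to it in length, 21.8% had no count at all.

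SNAI2 (chr8:49830163-49834299, minus strand, 4.137 kb, ENSG00000019549.10_3) had 24 and 25 R1 counts and 20 and 22 R2 counts. Its 0.208 and 0.293 CPM per kb (0.251 ± 0.0605, SD, n = 2) lay at place 71.6, and 28.2% of the genes of its length had no count. Per kb of span SNAI2 exceeded SNAI1 by 8.54 (2.93 to 33.9) and 8.90 (3.07 to 35.2), and per kb of transcript by 4.17 (1.43 to 16.5) and 4.34 (1.5 to 17.2). The low count of SNAI1 makes these intervals wide, yet the replicate values of the 2 genes did not overlap. No other listed gene overlapped SNAI1 or SNAI2.

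TWIST1, a basic helix-loop-helix factor, had the lowest level per kb of span of the 10 genes. Its R1 count was 10 and 14 and its R2 count 13 and 11, over a listed span of 96.682 kb (chr7:19060614-19157295, minus strand, ENSG00000122691.12_3). The level of 0.00371 and 0.00703 CPM per kb (0.00537 ± 0.00235, SD, n = 2) was 0.132 times the median of genes of that length, at place 18.4. The span needs care in this gene. In GENCODE release 29 the coding transcript of TWIST1 covers 2205 bp of the genome and 1666 bases when spliced, whereas a transcript annotated for nonsense-mediated decay covers 95934 bp. Divided by the spliced coding length, TWIST1 had 0.312 ± 0.137 CPM per kb and lay at place 53.6, so its position below the median depended on which length was used.

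TGFB1, the ligand gene, had the highest count of the 10 genes and the highest mean level per kb of span, although in replicate 1 SNAI2 was higher per kb. It encodes TGF-beta 1, which is secreted in a latent form and lies at chr19:41807492-41859816 on the minus strand (52.325 kb, ENSG00000105329.9_2). TGFB1 had 262 R1 counts in replicate 1 and 500 in replicate 2. Its R2 counts were 220 and 405. This gave 0.179 and 0.464 CPM per kb, a mean of 0.322 ± 0.201 (SD, n = 2), which was 5.86 times the median of genes of 50.042 to 54.708 kb. The place of TGFB1 was 97.8, and it was 96.6 and 98.0 in the single replicates.

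The listed span of TGFB1 is shared with other genes on the plus strand. CCDC97, which lies wholly inside it and covers 28.1% of it, held 45 and 86 counts, or 17.2% of the TGFB1 count in each replicate. Whether reads on the plus strand entered the TGFB1 count is not known. Taking these off as if they had left 217 and 414 counts, 0.266 ± 0.167 CPM per kb (SD, n = 2) and place 96.0. HNRNPUL1 overlaps 11.5% of the span and held 374 and 684 counts over its own whole length, more than TGFB1 itself. CTC-435M10.3 and TMEM91 each overlap the other end of the span, by 5.85% and 5.74% of it, and held 138 and 204, and 68 and 85 counts over their own lengths. How many of these counts fell in the shared stretches cannot be read from the tables, and taking off the full counts of every overlapping gene left TGFB1 with no count. The coding transcripts of TGFB1 in GENCODE release 29 cover 23589 and 40444 bp, so the listed span reaches beyond either.

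**Figure D2:**
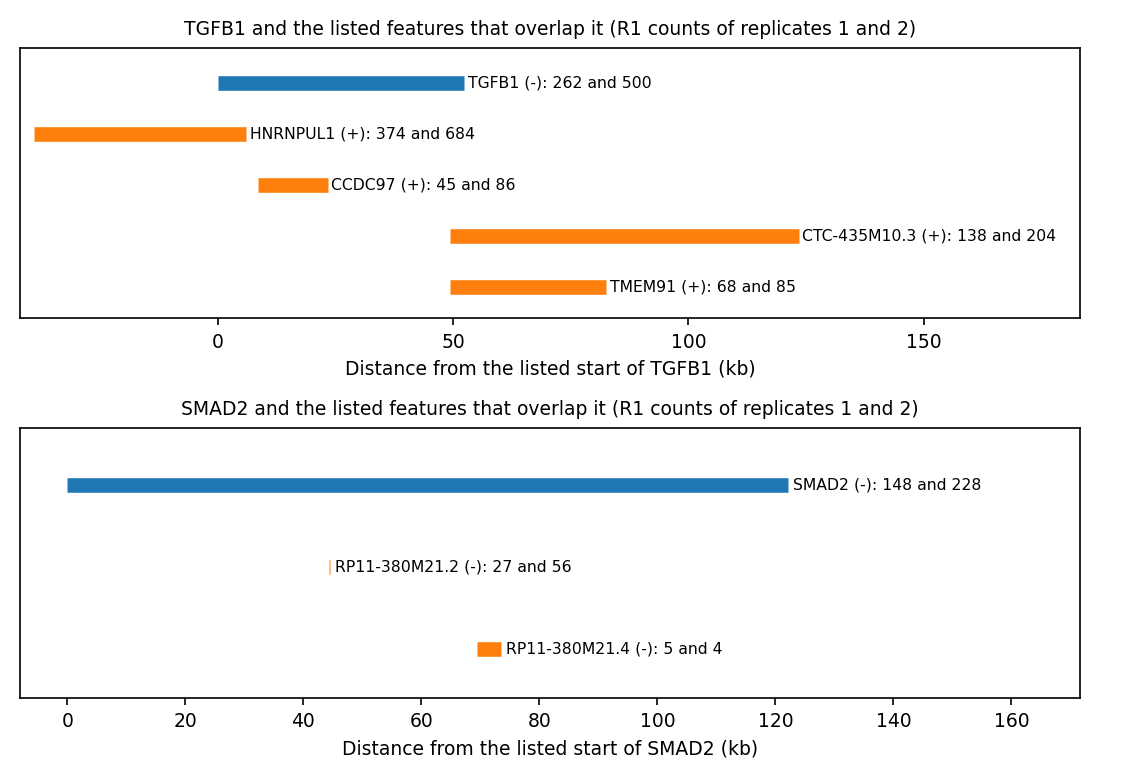
Maps of the TGFB1 and SMAD2 spans with the overlapping listed genes, as distance in kb from the start of each gene's listed span, with strand and the R1 counts of both replicates. The pseudogene RP11-380M21.2 is drawn wider than scale so that it can be seen. CCDC97 lies inside TGFB1, and the pseudogene, with 27 and 56 counts, lies inside SMAD2.

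TGFBR1 encodes the type I receptor, the kinase that phosphorylates SMAD2 and SMAD3. It lies at chr9:101866320-101916474 on the plus strand (50.155 kb, ENSG00000106799.12_3) and had 81 and 132 R1 counts and 59 and 110 R2 counts. Its level was 0.0579 and 0.128 CPM per kb (0.0928 ± 0.0495, SD, n = 2), at place 70.2.

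TGFBR2 encodes the type II receptor, which binds the ligand and activates the type I receptor. It lies at chr3:30647994-30735634 on the plus strand (87.641 kb, ENSG00000163513.17_3) and had 33 and 53 R1 counts and 30 and 50 R2 counts. Its 0.0135 and 0.0294 CPM per kb (0.0214 ± 0.0112, SD, n = 2) were 0.424 times the median of genes of its length, at place 28.0. The receptor genes therefore lay on opposite sides of the median of their length classes. Per kb of span TGFBR1 exceeded TGFBR2 by 4.29 (2.83 to 6.64) and 4.35 (3.14 to 6.10), and the replicate values did not overlap. Per kb of transcript the ratio was smaller, 1.74 (1.15 to 2.69) and 1.77 (1.28 to 2.48), and in the R2 table of replicate 1 its interval reached below 1 (1.39, 0.884 to 2.2).

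SMAD2 and SMAD3, which carry the signal from the receptors to the nucleus, had similar counts over similar spans. SMAD3 (chr15:67356101-67487533, plus strand, 131.433 kb, ENSG00000166949.15_3) had 132 and 196 R1 counts and 121 and 165 R2 counts. Its level was 0.0360 and 0.0724 CPM per kb (0.0542 ± 0.0258, SD, n = 2), at place 65.6. SMAD2 (chr18:45335328-45457517, minus strand, 122.19 kb, ENSG00000175387.15_5) had 148 and 228 R1 counts and 127 and 192 R2 counts, or 0.0434 and 0.0906 CPM per kb (0.0670 ± 0.0334, SD, n = 2), at place 74.8. Over the whole span SMAD2 exceeded SMAD3 per kb by 1.21 (0.947 to 1.54) in replicate 1 and 1.25 (1.03 to 1.52) in replicate 2. A difference was thus not detectable with the 148 and 132 counts of these genes in replicate 1. Per kb of the longest coding transcript, 34526 bases for SMAD2 and 6247 for SMAD3, the order was reversed, with ratios of 0.203 (0.159 to 0.258) and 0.210 (0.173 to 0.256). The size of these ratios depends on that 1 SMAD2 transcript. The next longest coding transcript of SMAD2 has 12075 bases, and ratios over it were not computed.

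Part of the SMAD2 count lay in a short copy of a mitochondrial gene inside the SMAD2 span. RP11-380M21.2, a processed pseudogene of the mitochondrial MT-CO2 (cytochrome c oxidase subunit 2) that GENCODE names MTCO2P2, lies at chr18:45379604-45379828 on the minus strand. Its 225 bp are 0.184% of the SMAD2 span, and it held 27 of 148 R1 counts (18.2%) in replicate 1 and 56 of 228 (24.6%) in replicate 2. With this and the other listed genes inside SMAD2 taken off, 116 and 168 counts were left, 0.0504 ± 0.0232 CPM per kb (SD, n = 2), at place 61.6. SMAD3 treated in the same way had 129 and 193 counts and 0.0532 ± 0.0256 CPM per kb (SD, n = 2), so the order of the SMAD2 and SMAD3 means was then reversed, within their spread. By replicate SMAD3 then had 0.0352 and 0.0713 CPM per kb, beside 0.0340 and 0.0668 for SMAD2. The place of SMAD2 moved down but stayed above the median. The pseudogene and the MT-CO2 mRNA are shown because a short read could match both. Over 192 aligned bases, copy positions 21 to 212 and mRNA positions 390 to 581, they were 97.4% identical in a blastn alignment of the GENCODE release 29 transcripts. Capitals mark the 5 bases that differ, 5′ to 3′.
MTCO2P2: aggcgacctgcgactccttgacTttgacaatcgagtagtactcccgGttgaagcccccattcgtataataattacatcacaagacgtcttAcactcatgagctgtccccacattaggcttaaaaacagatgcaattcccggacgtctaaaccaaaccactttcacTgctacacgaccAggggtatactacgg
MT-CO2: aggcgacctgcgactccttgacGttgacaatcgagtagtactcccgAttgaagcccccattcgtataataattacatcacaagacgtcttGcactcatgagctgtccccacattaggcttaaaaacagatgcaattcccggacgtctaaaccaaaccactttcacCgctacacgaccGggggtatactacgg
Written with the copy's base before the position and the mRNA's base after it, and counted from 1 at the 5′ end of the printed run, the differences are T23G, G47A, A91G, T166C and A178G. MT-CO2 itself held 1371 and 1755 R1 counts. The copy inside SMAD2 was also 99.5% identical over 195 bases to MTCO2P12 (listed as RP5-857K21.7), another nuclear copy, which held 187 and 216 counts. The counts of the copies cannot be separated from those of the mRNA in these tables, and their part in the SMAD2 value was not tested further.

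Ordered by mean CPM per kb of span, the genes ran from TGFB1 and SNAI2 through TGFBR1, SMAD2, SMAD3, ZEB1, ZEB2, SNAI1 and TGFBR2 to TWIST1. Between neighbours in that order, SNAI2 exceeded TGFBR1 and TGFBR2 exceeded TWIST1 with replicate values that did not overlap. The ranges of the other neighbours over the replicates overlapped. Compared within each replicate, TGFBR1 exceeded SMAD2, SMAD2 exceeded SMAD3, ZEB1 exceeded ZEB2 and SNAI1 exceeded TGFBR2 in both. The order of TGFB1 and SNAI2, of SMAD3 and ZEB1, and of ZEB2 and SNAI1 differed between the replicates. Per kb of the longest coding transcript, TGFB1 stayed highest with 6.08 ± 3.80 CPM per kb (SD, n = 2), followed by ZEB1 with 1.76 ± 0.599. SNAI1 was then lowest with 0.10 ± 0.0214, and SMAD2, whose longest transcript has 34526 bases, was next with 0.237 ± 0.118. On that scale the ranges of TGFB1 and ZEB1, and of SMAD2 and SNAI1, did not overlap, while the neighbours between ZEB1 and SMAD2 overlapped. Within each replicate the order by transcript held for all neighbours except SNAI2 and TGFBR2.

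**Figure D3:**
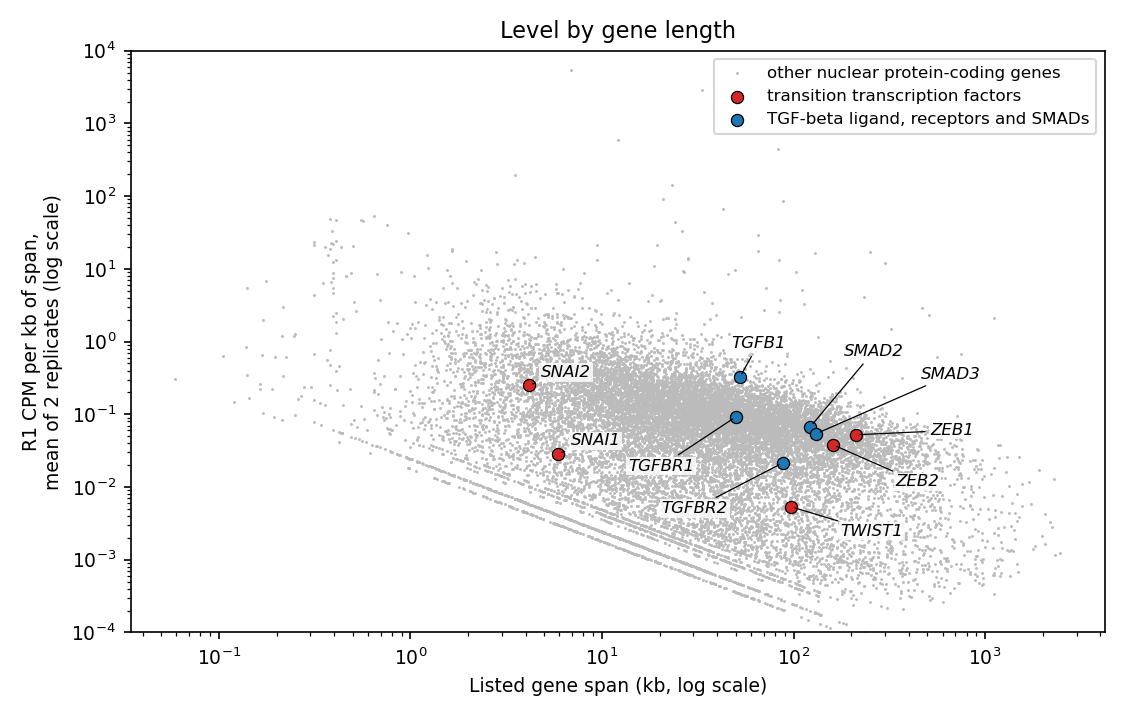
Mean R1 CPM per kb of span against listed gene span, both on log axes, for the 10 genes (coloured) and the other nuclear protein-coding genes (grey). Genes without an R1 count (2511 of 20285) are not drawn. TGFB1 lies near the upper edge for its length, and TWIST1 well below the middle.

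Set against genes of the same length, 7 of 10 genes lay above the median, compared with 9956 of all 20285 nuclear protein-coding genes (49.1%). Those below it were SNAI1, TWIST1 and TGFBR2. The median place was 67.9 for the 10 genes and 49.0 for all of these protein-coding genes. By group, 3 of 5 transcription factors lay above the median of their length (median place 53.2), as did 4 of 5 of the ligand, receptors and SMADs (70.2). By transcript length 7 of 10 again lay above the median, but with a median place of 54.4, and the genes were not all the same. TWIST1 moved to 53.6 and SMAD2, by its transcript of 34526 bases, to 34. SNAI2 stood at 50.2 on that scale, with 55.2 and 47.2 in the single replicates.

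**Figure D4:**
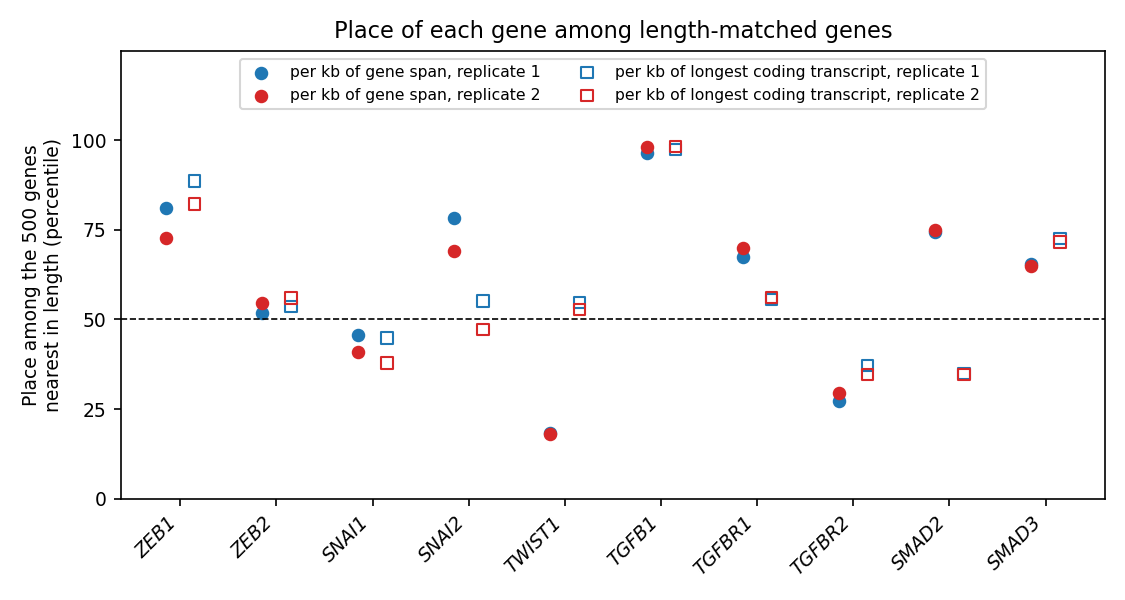
Place of each gene among the 500 nuclear protein-coding genes nearest in length, as a percentile, in each replicate, per kb of span (filled circles) and per kb of the longest coding transcript (open squares). The dashed line marks 50, and in both replicates TWIST1 lay below it by span and above it by transcript, and SMAD2 the reverse.

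The CPM of 10 of 10 genes was higher in replicate 2, by ratios from 1.36 (SNAI1) to 2.59 (TGFB1). Most protein-coding genes moved this way: replicate 2 held 42.5% of all R1 counts of both libraries, but a median of 61.5% of the counts of the 13207 protein-coding genes with a mean of at least 10. Even the 5th percentile of that share, 51.1%, lay above 42.5%, so a higher CPM in replicate 2 did not set the 10 genes apart. Against the median of 61.5% as the centre, 2 of the 9 genes with a mean count of at least 10 had an interval that left it out. Of the 13207 genes 2005 did (15.2%). ZEB1 lay below the centre, with 54.7% (50.2 to 59.0) of its counts in replicate 2, or -0.40 on the log2 scale (-0.66 to -0.15). TGFB1 lay above it, with 65.6% (62.1 to 69.0), or 0.26 on the log2 scale (0.04 to 0.48). The shares of the other genes lay from 50% for SNAI1, which had too few counts to be compared, to 62.0% for TGFBR1. This compares 2 libraries of the same condition.

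**Figure D5:**
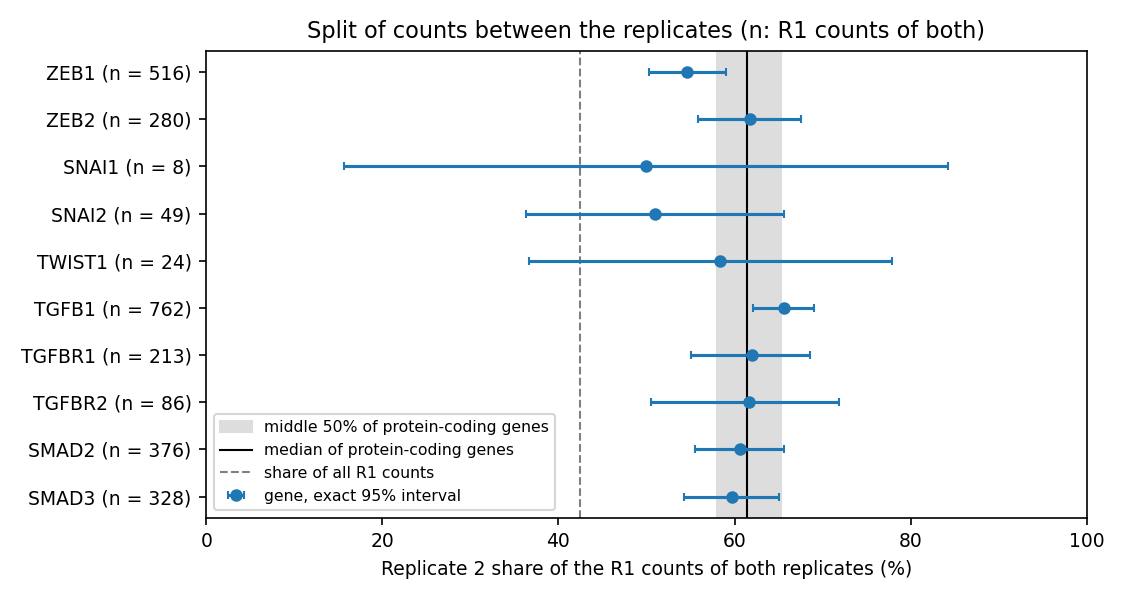
Share of each gene's R1 counts found in replicate 2, in percent, with exact 95% intervals and the median share of protein-coding genes as a line. The intervals of ZEB1 and TGFB1 leave out the line at 61.5%, and SNAI1 has the widest interval.

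The mates gave nearly the same picture for the 10 genes. R2 counts were 72.8% to 130% of R1 counts in replicate 1 (median 87.8%) and 78.6% to 100% in replicate 2 (median 84.3%). The highest value was that of TWIST1, from 13 and 10 counts. For protein-coding genes as a whole the medians were 87.9% and 84.7%, whereas R2 totals over the full tables were 40.3% and 42.7% of R1 totals. None of the 10 spans overlapped a listed tRNA feature, compared with 90 of the 20285 protein-coding genes.

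The nearest protein-coding genes along the chromosome, 1 on each side and not overlapping, were compared with the genes they flank. Of 20 such neighbours 15 had a lower level per kb of span, beside 48.1% of the neighbours of all nuclear protein-coding genes with one on each side. Both neighbours were exceeded by 7 of the 10 genes, beside 31.6% of those 20234 genes. SNAI2 lies between EFCAB1, with no R1 count (a count of 0 allows up to 3 per library), and C8orf22, with 0 and 1. TGFB1 lies between AXL, whose span overlaps a listed tRNA feature, at 0.0136 ± 0.000157 CPM per kb, and B9D2, at 0.0396. SNAI1 and SMAD3 were below both neighbours: RNF114 and UBE2V1 beside SNAI1 had 0.231 and 0.232 CPM per kb, and SMAD6 and AAGAB beside SMAD3 had 0.0820 and 0.0963.

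Genes of lists from the same pathways, also chosen with earlier results of these data known, were placed in the same way. The highest and lowest gene of each list are those by mean CPM per kb of span, which need not be those by place or by count. The lists stand beside the 49.1% and the median place of 49.0 of all nuclear protein-coding genes. Corepressors recruited by the transition factors all lay above the median of their length, 10 of 10 with a median place of 89.6. HDAC1, a histone deacetylase, was the highest of them per kb with 261 and 438 counts at place 96.8, and RCOR1, the CoREST scaffold, was the lowest per kb with 136 and 221 at place 68.0. AJUBA had fewer counts, 26 and 48, and a lower place, 65.2. Of 14 other transition factors 9 lay above the median (median place 61.5). Per kb they ran from FOXC1, a forkhead factor with 122 and 248 counts, to PRRX1, a homeobox factor with 2 and 2. By count and place YBX1, a cold-shock protein gene, stood above FOXC1, with 333 and 606 counts at place 98.2. FOXQ1 had no R1 count. Factors that hold the epithelial state lay lower, 3 of 9 above the median with a median place of 33.2. Their highest per kb, OVOL2, had 334 and 409 counts at place 95.6, above the place of ZEB1 (76.4). Its span is overlapped by SNX5 and others, while overlaps of the other genes in this list are not given here. Their lowest per kb with a count was GRHL2, with 7 and 17, and ELF3 had none.

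Within the TGF-beta pathway the lists differed in level. Of 13 other ligands and activators of latent TGF-beta 5 lay above the median of their length, with a median place of 30. FURIN, a protease that processes the TGF-beta precursor, was the highest per kb with 54 and 88 counts at place 77, and INHBA, the activin A subunit, was the lowest with 1 and 0. LTBP4, a latent TGF-beta binding protein gene, had more counts, 111 and 148, and a higher place, 81.0. Of 11 other receptors of the family 5 lay above the median (median place 46.8), and per kb they ran from ACVR2B with 168 and 268 counts to ACVR1C with 6 and 12. Other SMADs had 4 of 6 above it (68.2), and per kb they ran from SMAD5, with 178 and 298 counts, to SMAD1, with 45 and 75, both carriers of BMP signals. The list of inhibitors and of genes for turnover of the signal had 9 of 12 above it (70.3). BAMBI, a decoy receptor, was the highest per kb of these with 11 and 38 counts, and the ubiquitin ligase gene NEDD4L was the lowest with 131 and 192 over a long span. Genes listed as induced by TGF-beta had 7 of 12 above it (62.4), and per kb they ran from ID3, with 40 and 90 counts, to TGFBI, with 0 and 1. Whether TGF-beta induces them in these cells was not tested. SMAD6, SMAD7, SKIL, PMEPA1 and LTBP2 stand in more than 1 of these lists, so the lists are not separate.

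The genes most like TGFB1 over the 4 tables, among the 500 nearest in length, were CAND1, MTA1 and ALDH18A1, at distances of 0.12, 0.19 and 0.23 in log2(CPM per kb + 0.01). For TWIST1 they were KLHL14, FRMPD1 and SIDT1, at 0.20, 0.25 and 0.26. Likeness over 4 tables from 2 libraries describes level and mate balance, and little else.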

How the data were processed

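For each mate of 2 CLIP-seq libraries, the authors deposited a table of raw counts, in whole reads on each listed gene or element. Bowtie2 2.3.5.1, bedtools 2.24.0 and the hg19 (GRCh37) build stand in the submitters' processing notes. How multiply mapped reads and strand were treated is not given in the sources used here. From 741091 lines, 13 repeats were dropped. CPM used the table totals, and the 13 mitochondrial genes were left out, which left 20285 genes. Places used the 500 nearest spans, ties counted as equal parts. For the replicate split, the exact Clopper-Pearson interval of each gene's replicate 2 share was compared with the median share of genes with a mean count of at least 10. Starts of tRNA and piRNA features were read as 0-based. Transcripts came from GENCODE release 29 by gene ID. Software was scipy 1.17.1, numpy 2.4.6 and pandas 2.3.3 in Python 3.11.15, blastn 2.17.0, matplotlib 3.10.9 and, for library scaling, DESeq2 1.42.0 and edgeR 4.0.16 in R 4.3.3. The interval step was checked on simulated replicates with counting error only, so spread beyond counting was not covered by that check.

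The genes, lists and rules were chosen with earlier results of these data known. Named genes were the 10 genes, the highest and lowest of each list per kb, overlapping listed genes, nearest neighbours and the 3 genes most like the highest and the lowest. CD44, VIM, AJUBA, YBX1, LTBP4 and genes at 0 named besides were chosen after their values were seen. Alternatives were R2, both mates, each replicate left out, overlapping features taken off, other length windows, a count minimum, genes over tRNA left out, plain CPM, transcript length and other scalings. Taking off features wholly inside a gene was chosen after seeing the data.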

Additional observations from a re-analysis of the deposited data

How the results depend on the processing

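The median place of the 10 genes, 67.9, was 65.9 with R2, 67.1 with both mates summed, 66.4 to 67.1 with 1 replicate left out and 67.0 with the 200 nearest genes. It was 56.7 with every overlapping feature taken off, 62.9 with inside features alone taken off (an alternative chosen after seeing the data), 59.6 over the 9 genes left by a minimum mean count of 10, and 54.4 per kb of transcript. With 1000 nearest genes, genes over tRNA left out or plain CPM it moved by less. From 5 to 7 genes lay above the median in the settings run. Single places crossed 50 for TGFB1 (1.4 with overlapping features taken off), ZEB2 (48.0 with 200 nearest, 47.0 with the count minimum), SNAI2 (34 with the count minimum), TWIST1 (53.6) and SMAD2 (34, both per transcript). Of 119 place values for single genes 43 moved by more than the replicate SD, 15 up and 28 down, as did 23 of 90 level values. Most of those 23 came from R2 and from scaling to protein-coding counts. There counts were divided by smaller totals and every level rose, so those moves reflect the unit. With the replicate split centred on the library totals, 7 of 9 genes lay apart, beside 89.1% of protein-coding genes. With edgeR or DESeq2 scaling 2 of 9 genes lay apart, beside 15.2% of protein-coding genes in each case. The same 2 of 9 stood beside 13.2% with R2 and 26.8% with summed mates. With no count minimum it was 2 of 10, beside 12.2%. Leaving out a replicate gives no split. No paired analysis was possible because the study had a single group. With 4 to 500 counts per gene, depth limits SNAI1, TWIST1 and SNAI2 most.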

Other observations

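Some values stand outside the comparisons above and were picked after they were seen. ENG, which encodes the TGF-beta co-receptor endoglin, had 11 and 4 R1 counts but 51 and 3 R2 counts. HBB, a haemoglobin gene among the blood markers, had 5 and 12 R1 counts and 14 and 44 R2 counts. THBS1, which encodes an activator of latent TGF-beta, had 0 and 1 R1 counts. The summed R1 counts of the corepressor list, 1936 and 3138, exceeded those of the 10 genes in both replicates.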
